A study of Mus musculus with 6 samples.

Results

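The lysosome and autophagy genes described here are the gene symbols of the deposited table that are on a fixed list of 29 names, or that begin with Atp6v0 or Atp6v1, the prefixes of the proton pump subunits. They came to 54 of the 35970 symbols. Of these, 25 carry the pump prefixes, 11 encode hydrolases or their activators, 4 encode membrane proteins, 2 encode transcription factors and 12 act in autophagy. Ribosome-bound polyadenylated RNA was measured in 6 livers, one library per mouse. All mice were Fah-/-;dCas9+. Controls and treated mice alike thus lacked fumarylacetoacetate hydrolase, which liver cells need to survive tyrosine breakdown, and carried dCas9, the Cas9 variant that does not cut DNA and represses the gene to which its guide binds (CRISPR interference, CRISPRi). All received 10 µg of a transposon plasmid with Fah, the ribosomal protein L10a fused to GFP, and a guide, together with a Cre virus, AAV8.TBG.PI.Cre.rBG, whose TBG promoter is active in hepatocytes. In 3 mice the guide was non-targeting, and in 3 it was directed against Neurl1b, an E3 ubiquitin ligase gene. Nitisinone, given at 7.5 µg/mL until then, was withdrawn at injection, and livers were collected 4 weeks later. Cells that took up the plasmid regained Fah, while the host liver still held hepatocytes without it. Tagged ribosomes were pulled down from 400 mg of liver with an antibody to GFP. The age of the mice is not given in the sources used here.

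Lysosomes break down proteins, lipids and glycans in an acidic lumen. The acid is made by the vacuolar ATPase, whose cytosolic V1 sector splits ATP and turns a rotor that drives protons through the membrane-bound V0 sector. Autophagy encloses cytoplasm in a double membrane and delivers it to the lysosome, using small proteins of the LC3 and GABARAP families that are joined to lipid and bind cargo receptors. TFEB and TFE3 are related transcription factors that activate many lysosomal and autophagy genes when nutrients are short. In hepatocytes this system recycles organelles, glycogen and lipid droplets.

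Values are TPM, a unit in which each library sums to the same total, which are corrected for transcript length, so levels of different genes can be compared, and which keep no depth. Neurl1b itself had 1.22, 0.897 and 0.688 TPM in the non-targeting mice against 0.295, 0.351 and 0.307 in the CRISPRi mice. Its mean of 0.627 TPM was below the minimum of 1 TPM, so it was not tested, and the precision of such low values is unknown. Albumin (Alb) was at 11518 to 31253 TPM in all libraries, the hepatocyte marker the label calls for. Non-targeting mouse 1 stood apart from the other controls. It was the highest of the 3 controls in 67.9% of the 10598 genes tested, and 20411 transcripts lay above 1 TPM in it, within the 19740 to 20530 of the CRISPRi libraries, against 18000 and 17603 in non-targeting mice 2 and 3. Median-of-ratios scaling, which sets the typical gene equal across libraries, gave factors of 1.12 for this mouse, 0.848 and 0.838 for the other controls and 1.05 to 1.09 for the CRISPRi mice. The median log2 fold change of all genes was 0.18 as deposited and -0.0013 after that scaling. Calls are therefore given with and without that mouse and that scaling, and role medians with and without that scaling. Values of single genes are as deposited unless stated, and other settings are given mainly where the sign changed. Log2 fold changes above 0 were generally smaller after that scaling. In a bulk pull-down, fewer cells of a type and less RNA per cell cannot be told apart.

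Of the 54 genes, 46 had a mean of at least 1 TPM and were tested. None passed an adjusted p of 0.05 in limma with all mice, where 0.0189% of all genes did, and the lowest adjusted p among them was 0.310, for Ctsl. With an unadjusted p under 0.05 stood 7 genes, all higher in the CRISPRi mice, against 10.1% of all genes higher and 3.19% lower. They were Ctsl, Atp6v0e2, Atp6v0e, Ctsd, Atp6v1h, Gabarapl1 and Atp6v0a2. The CRISPRi and control values did not overlap for 6 genes with more TPM in the CRISPRi mice and 1 with less, against 12.5% and 4.57% of all genes. The median log2 fold change of TPM + 1 was 0.36 for the proton pump, 0.21 for the hydrolases, 0.09 for the membrane proteins, -0.06 for the transcription factors and 0.29 for autophagy. These medians lie around the 0.18 of all genes, and with median-of-ratios scaling they became 0.15, 0.03, -0.12, -0.25 and 0.08. In that scaled fit Atp6v0e, Atp6v0e2 and Ctsl had an unadjusted p under 0.05, against 6.44% of all genes higher and 6.66% lower. Non-targeting mouse 1 was the highest control and reached the CRISPRi range for 25 of the 46, against 58.3% of all genes.

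**Figure D1:**
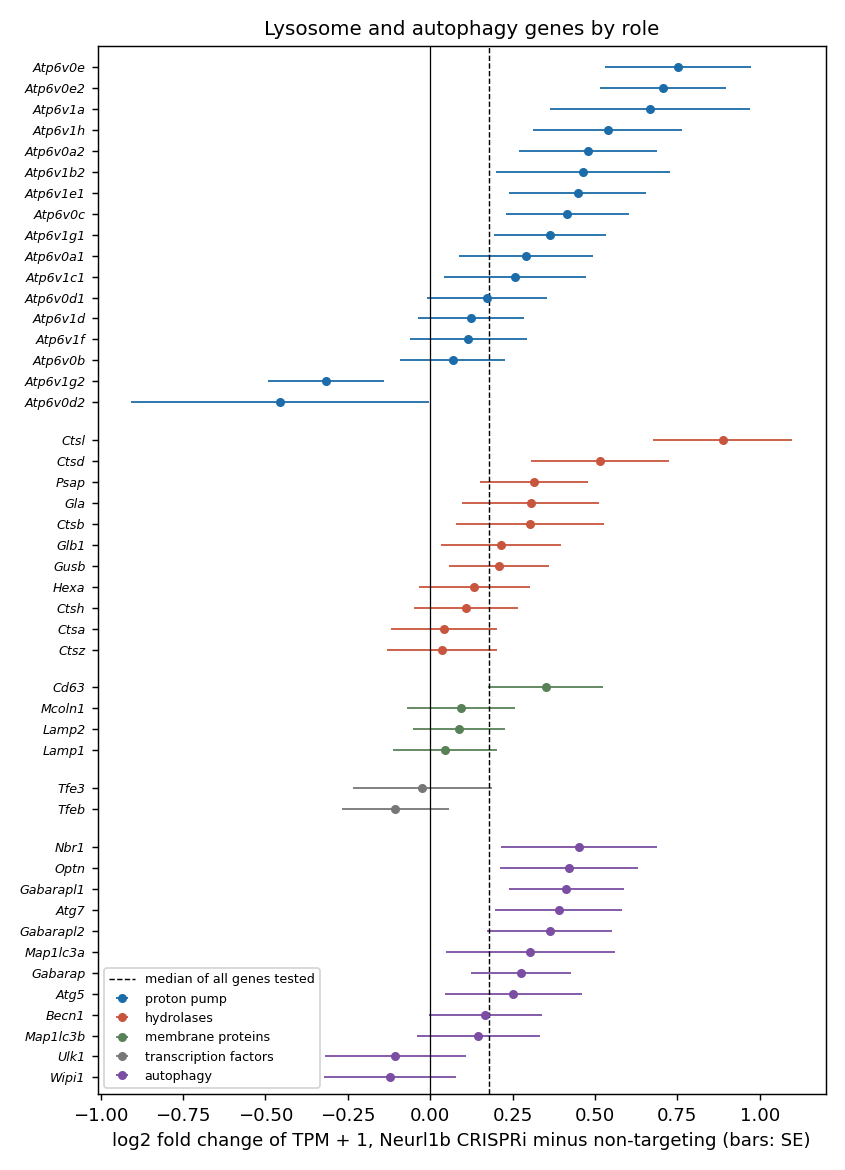
Log2 fold change of TPM + 1, Neurl1b CRISPRi minus non-targeting, for the 46 tested genes by role, with standard errors from limma. The dashed line marks the median of all tested genes, 0.18, and the points run from -0.46 for Atp6v0d2 to 0.89 for Ctsl.

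The membrane sector of the proton pump was led by the proteolipid gene Atp6v0c, whose product forms most of the rotor ring that carries protons. It had 513, 340 and 391 TPM in the non-targeting mice against 600, 545 and 497 in the CRISPRi mice. The groups overlapped through non-targeting mouse 1 (log2 fold change 0.42, SE 0.19, adjusted p = 0.381). Its pseudogenes Atp6v0c-ps1 and Atp6v0c-ps2, which can share its reads, stayed at or below 0.512 TPM in every library. The small membrane subunit gene Atp6v0e had 242, 137 and 179 TPM in the controls and 338, 316 and 267 in the CRISPRi mice. All CRISPRi values were above all control values, and the means, 307 ± 36.5 against 186 ± 52.7 (SD, n = 3 each), differed 1.65-fold (log2 fold change 0.75, SE 0.22, adjusted p = 0.323). Its paralog Atp6v0e2 was some way lower in level, at 6.19, 4.10 and 4.38 TPM against 8.16, 8.74 and 8.61. Here too the groups did not overlap, with means of 8.51 ± 0.307 and 4.89 ± 1.14 (SD, n = 3 each), a log2 fold change of 0.71 (SE 0.19) and an adjusted p of 0.317. After median-of-ratios scaling the log2 fold changes of Atp6v0e and Atp6v0e2 were 0.54 and 0.52, with unadjusted p of 0.0147 and 0.00271 in limma.

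The subunits that form the proton half-channels were less abundant. Atp6v0a2 had 6.90, 4.98 and 5.14 TPM in the controls and 10.3, 7.88 and 6.81 in the CRISPRi mice, with non-targeting mouse 1 just above CRISPRi mouse 3 (log2 fold change 0.48, SE 0.21, adjusted p = 0.376). Atp6v0a1 had means of 9.92 ± 2.20 and 12.2 ± 1.38 TPM (SD, n = 3 each), and its groups overlapped. The second proteolipid gene, Atp6v0b, had 172 ± 22.1 TPM in the controls and 180 ± 12.7 in the CRISPRi mice. Its log2 fold change of 0.07 became -0.15 with median-of-ratios scaling. Atp6v0d1, which couples the rotor to the V0 ring, had 66.4 ± 13.2 and 74.0 ± 3.41 TPM, and its log2 fold change of 0.17 became -0.04 with that scaling. Atp6v0d2, a form known from osteoclasts and macrophages, was scattered, at 1.90, 5.35 and 0.481 TPM in the controls and 1.01, 1.03 and 1.59 in the CRISPRi mice.

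For several genes of the catalytic V1 sector, though not for Atp6v1f, the CRISPRi libraries were close together and the controls were spread. Atp6v1a, the subunit that hydrolyses ATP, had 26.9, 10.5 and 13.5 TPM in the non-targeting mice against 25.7, 26.3 and 24.5 in the CRISPRi mice. Non-targeting mouse 1 was the highest library of all, and the other controls were the lowest. With all mice the log2 fold change was 0.67 (SE 0.30, adjusted p = 0.385). Without non-targeting mouse 1 it was 1.04 (SE 0.14, adjusted p = 0.0173), in a fit where 25.3% of all genes passed 0.05. Atp6v1b2, the partner of Atp6v1a in the catalytic head, had 38.9, 19.6 and 19.7 TPM against 36.7, 34.4 and 32.4. Atp6v1h, a regulatory subunit, had 50.3, 27.7 and 31.7 TPM against 54.2, 51.6 and 49.9. Both genes show the arrangement of Atp6v1a, with non-targeting mouse 1 among or above the CRISPRi libraries. Their log2 fold changes were 0.46 (SE 0.26) and 0.54 (SE 0.23) with all mice, and 0.78 and 0.79 without that mouse.

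Among the stalk genes of V1, Atp6v1f, Atp6v1e1 and Atp6v1g1 had more TPM than the head genes Atp6v1a and Atp6v1b2, at means of 21.2 and 30.3 over all libraries. Atp6v1d did so only through Atp6v1d-202, which GENCODE classes as a retained intron, at a mean of 52.7 TPM. Its coding transcript Atp6v1d-201 had 9.84, less than either head gene. Atp6v1f, a central stalk subunit, had 280, 234 and 321 TPM in the controls and 337, 304 and 262 in the CRISPRi mice, which overlapped fully, and its log2 fold change of 0.12 became -0.10 with median-of-ratios scaling. Atp6v1d, the other central stalk subunit, had means of 60.05 ± 8.31 and 65.2 ± 2.80 TPM (SD, n = 3 each), a log2 fold change of 0.12 which was -0.09 after that scaling. The peripheral stalk gene Atp6v1e1 had 251, 156 and 156 TPM in the controls against 253, 248 and 249. Apart from non-targeting mouse 1, which was level with them, the controls were lower than the CRISPRi mice. Atp6v1g1, its stalk partner, had 174 ± 30.8 TPM against 221 ± 14.1, and Atp6v1c1, which joins the stalks, had 27.8 ± 7.93 against 32.5 ± 1.09. Over the whole sector, summed TPM was 963, 683 and 778 in the controls and 1025, 997 and 925 in the CRISPRi mice, so that CRISPRi mouse 3 lay below non-targeting mouse 1. For V0 the sums were 1012, 759 and 818 against 1238, 1151 and 1028, which did not overlap. Atp6v0c and Atp6v0e, the most abundant V0 genes, weigh most in these sums. Their control means were 415 and 186 TPM, where the sums had a mean of 863. The median log2 fold changes of the sectors were alike, at 0.35 for V0 and 0.36 for V1. After median-of-ratios scaling both were 0.15.

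Of the 8 pump symbols that were not tested, Atp6v1e2 was listed at 0 in every library. Atp6v0a4, Atp6v1b1, Atp6v1c2 and Atp6v1g3, forms known from kidney and a few other tissues, were at or below 0.254 TPM throughout. Atp6v1fnb, which carries the prefix only because it neighbours Atp6v1f, was at 0 in 5 libraries and 0.0936 TPM in CRISPRi mouse 1. The remaining 2 were the Atp6v0c pseudogenes. Atp6v1g2, a form known from neurons, passed the filter narrowly with a mean of 1.00 TPM. It was the one member with less TPM in every CRISPRi mouse than in any control, at 0.829, 1.30 and 1.57 against 0.815, 0.713 and 0.799 (log2 fold change -0.32, SE 0.18, adjusted p = 0.425). The gap between non-targeting mouse 1 and CRISPRi mouse 1 was 0.829 against 0.815, and the precision of values this low is unknown.

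Subunits and adaptors that exist in several forms were compared by the share of the leading form in 9 families, a measure that does not depend on the scaling of a library. No adjusted p was below 0.9. Atp6v1b2, Atp6v1c1, Atp6v1e1 and Atp6v1g1 each made up over 99% of their family in every library, and Atp6v0e made up 96.9% to 97.6%. Among the a subunits the most abundant was Tcirg1, the a3 form, which the Atp6v prefix does not cover. Its share was 53.7% ± 4.49 in the controls and 47.7% ± 5.60 in the CRISPRi mice (SD, n = 3 each, exact two-sided permutation p = 0.2, adjusted 0.9). Atp6v0a2 had 16.8% ± 2.43 and 21.1% ± 3.85, and Atp6v0a1 had 29.2% ± 2.91 and 30.9% ± 2.71. Within the G family, Atp6v1g1 had 99.3% ± 0.301 and 99.6% ± 0.0431, groups that did not overlap (exact permutation p = 0.1, the smallest that 3 against 3 allows, adjusted 0.9). The remainder was almost all Atp6v1g2, the gene near the 1 TPM filter, whose low values are of unknown precision. Map1lc3a held 49.1% ± 6.99 of the LC3 pair in the controls and 51.9% ± 2.87 in the CRISPRi mice, and Gabarap 60.5% ± 2.49 and 58.4% ± 0.195 of its family (exact permutation p of 0.6 and 0.4, adjusted 0.9 for both).

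**Figure D2:**
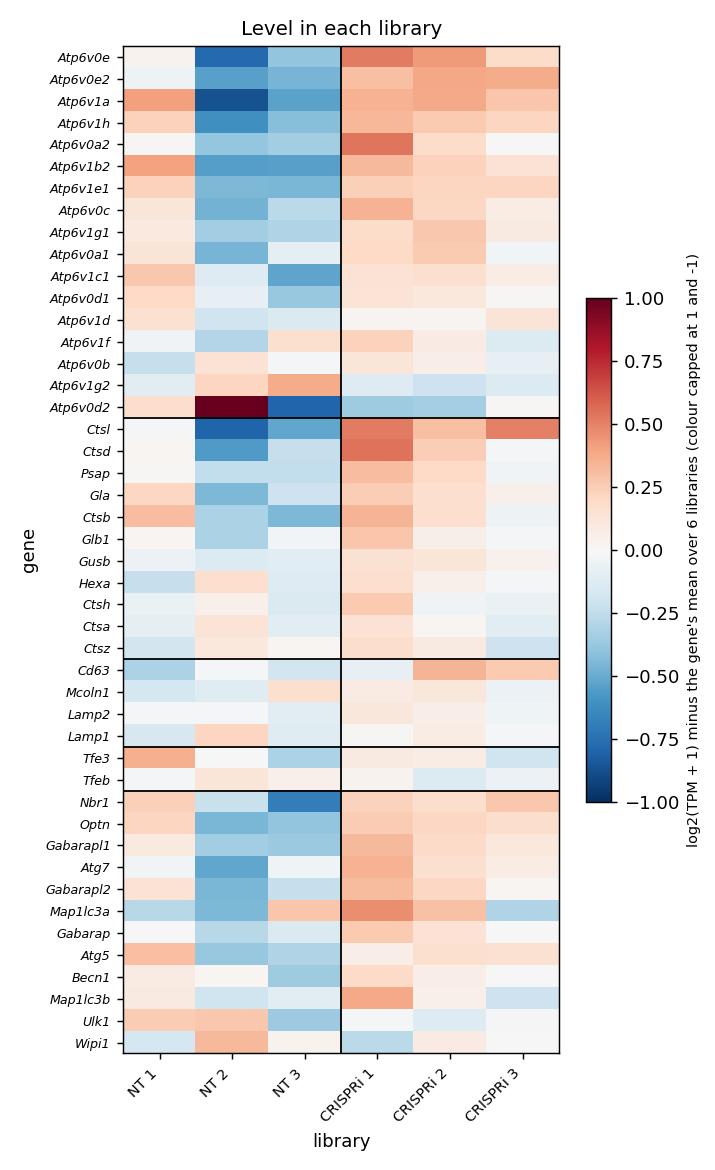
Log2(TPM + 1) minus the gene's mean over the 6 libraries (colour, capped at 1 and -1) for the 46 tested genes (rows, by role) in each library (columns; NT, non-targeting). Non-targeting mouse 1 was the highest control for 13 of 17 pump genes, 7 of 11 hydrolase genes and 9 of 12 autophagy genes, against 67.9% of all genes.

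The cysteine protease cathepsin L had the lowest p of all members. Ctsl had 707, 408 and 496 TPM in the non-targeting mice against 1023, 879 and 1009 in the CRISPRi mice. Every CRISPRi library was above every control, and non-targeting mouse 1 was the nearest of the controls. The means were 537 ± 153 and 971 ± 79.4 TPM (SD, n = 3 each), a 1.81-fold difference (log2 fold change 0.89, SE 0.21, unadjusted p = 0.00275, adjusted p = 0.310). With median-of-ratios scaling the log2 fold change was 0.67 (unadjusted p = 0.00547 in limma). Without non-targeting mouse 1 it was 1.10 (adjusted p = 0.0173), in a fit where 25.3% of all genes passed 0.05. Cathepsin D, the main aspartic protease of lysosomes, followed. Ctsd had 285, 189 and 240 TPM in the controls and 409, 334 and 278 in the CRISPRi mice, where CRISPRi mouse 3 was below non-targeting mouse 1 (log2 fold change 0.52, SE 0.21, adjusted p = 0.359). Its log2 fold change was 0.30 with median-of-ratios scaling.

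The other cathepsins differed less. Ctsb, another cysteine protease, had 194, 125 and 114 TPM against 198, 176 and 151, and its groups overlapped (log2 fold change 0.30, SE 0.22). Ctsz, an exopeptidase, had 234, 287 and 270 TPM against 300, 284 and 230, with a log2 fold change of 0.04 that turned to -0.18 with median-of-ratios scaling. Ctsh, an aminopeptidase, and Ctsa, the carboxypeptidase that protects β-galactosidase and neuraminidase, had log2 fold changes of 0.11 and 0.04. These became -0.11 and -0.17 with that scaling. So the log2 fold changes of the 6 cathepsin genes ran from 0.04 to 0.89.

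Among the enzymes that degrade glycans and glycolipids, Gusb (β-glucuronidase) had 14.5, 13.7 and 13.9 TPM in the controls and 16.9, 16.6 and 15.7 in the CRISPRi mice. Its groups did not overlap, but the difference was small (log2 fold change 0.21, SE 0.15, adjusted p = 0.504), close to the 0.18 of all genes, and it was 0.0073 after median-of-ratios scaling. Gla (α-galactosidase A) had 5.62, 3.20 and 3.97 TPM against 5.80, 5.44 and 4.95, and Glb1 (β-galactosidase) had 4.71 ± 0.688 against 5.62 ± 0.728 (SD, n = 3 each). Hexa, the α chain of β-hexosaminidase, had 37.0 ± 5.59 and 40.5 ± 2.71, a log2 fold change of 0.13 that became -0.08 with that scaling. Psap, which encodes the precursor of the saposins that present lipids to these enzymes, had 170, 142 and 142 TPM against 208, 193 and 164 (log2 fold change 0.31, SE 0.16, adjusted p = 0.407). Only non-targeting mouse 1 reached into its CRISPRi range. Summed over the 11 genes, TPM was 1844, 1433 and 1509 in the controls and 2457, 2137 and 2093 in the CRISPRi mice without overlap. Ctsl, the most abundant of the 11, weighs most in these sums. Its means were 537 and 971 TPM, where the sums had means of 1595 and 2229. The separation of the sums is thus not one of the hydrolases in general, whose median log2 fold change was 0.21.

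**Figure D3:**
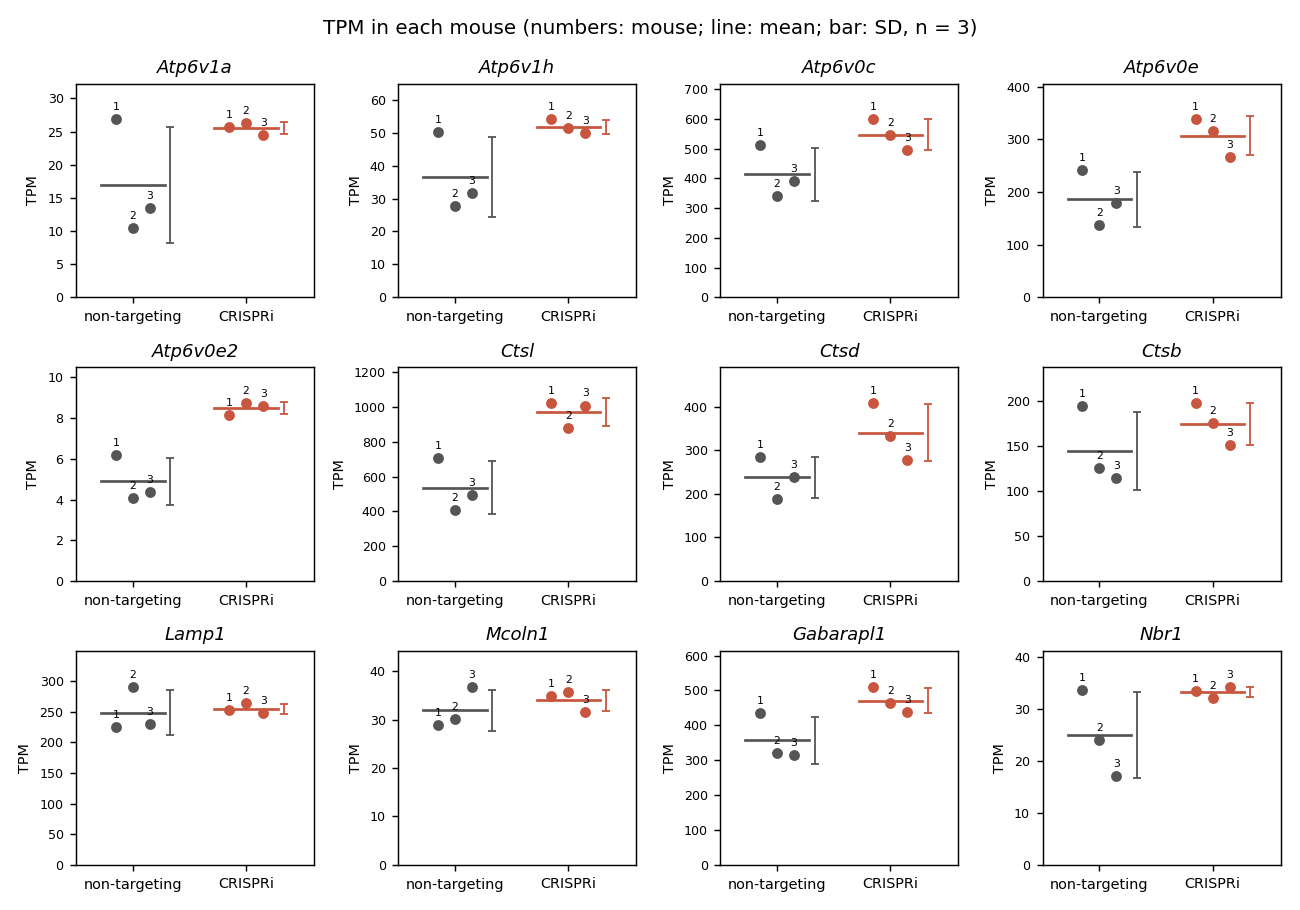
TPM in each mouse for 12 of the genes, with the mean (line) and SD (bar, n = 3) of each group and the mouse number above each point. Ctsl, Atp6v0e, Atp6v0e2 and Gabarapl1 do not overlap between the groups, while for Atp6v1a, Ctsb and Nbr1 non-targeting mouse 1 lies among or above the CRISPRi mice.

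Part of the hydrolase difference lay in particular transcripts. The leading transcript of Ctsb, Ctsb-201, had 129, 125 and 114 TPM in the controls and 129, 127 and 112 in the CRISPRi mice, which is no separation. The Ctsb difference came from Ctsb-202, which GENCODE classes as a retained intron, at 65.5 TPM in non-targeting mouse 1, listed at 0 in non-targeting mice 2 and 3, and at 68.6, 49.4 and 39.0 in the CRISPRi mice. For Ctsl the leading transcript Ctsl-201 had 533, 371 and 465 TPM against 758, 704 and 798, which did not overlap. Its coding transcript Ctsl-203 had 136, 36.0 and 29.4 against 189, 141 and 176, and Ctsl-206 had 31.2, 0 and 0 against 72.5, 30.5 and 29.9. Ctsd-202 and Psap-202 were also lowest in non-targeting mice 2 and 3. Ctsd-202 had 139, 65.1 and 58.2 TPM in the controls and 198, 144 and 131 in the CRISPRi mice, and Psap-202 had 35.2, 10.0 and 0.0015 against 47.1, 25.9 and 24.1. In contrast the retained-intron transcript Atp6v0b-204 had 12.3 and 27.98 TPM in non-targeting mice 2 and 3 and was listed at 0 in the other 4 libraries. Over the whole table, 65 of the 16790 transcripts above 1 TPM in non-targeting mouse 1 and the 3 CRISPRi libraries were listed at 0 in both other controls, 8 of them retained introns. In the other direction, 20 of the 15938 transcripts above 1 TPM in those 2 controls were listed at 0 in the other 4 libraries. Such transcripts overlap the coding ones, so their levels depend on how reads were divided. Summed over each library, retained introns held 4.61%, 6.48% and 5.84% of TPM in the controls and 4.60%, 4.92% and 5.05% in the CRISPRi mice. Protein-coding transcripts held 85.9%, 84.1% and 83.0% against 85.5%, 84.9% and 85.1%. The part of these differences between libraries in the gene-level results was not tested.

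**Figure D4:**
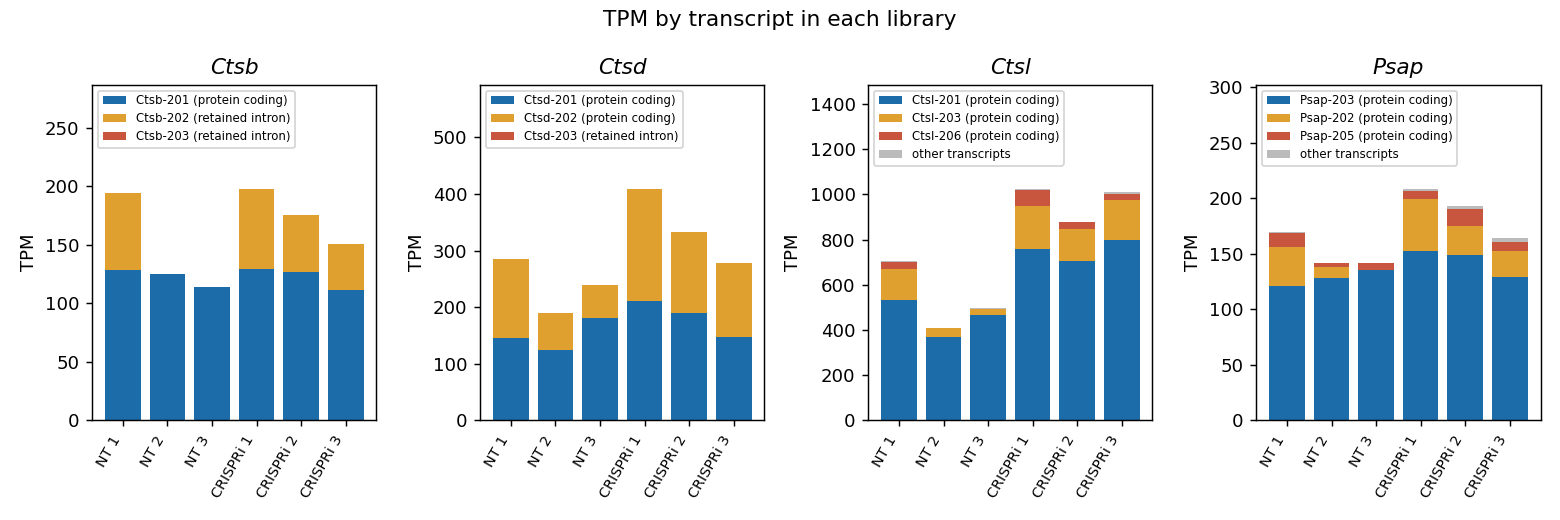
TPM by transcript (stacked) of Ctsb, Ctsd, Ctsl and Psap in each library (NT, non-targeting), with the GENCODE class of each transcript. The second transcript of each gene is lower in non-targeting mice 2 and 3 than in the other 4 libraries, and Ctsb-201 is level across libraries.

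Membrane proteins differed little. Lamp1 and Lamp2, the abundant glycoproteins that coat the lysosomal membrane, had 249 ± 36.5 and 161 ± 6.25 TPM in the controls and 255 ± 8.49 and 171 ± 9.59 in the CRISPRi mice (SD, n = 3 each). By mouse, Lamp1 had 225, 291 and 230 TPM against 253, 264 and 247, and Lamp2 had 165, 164 and 154 against 179, 174 and 161. Both overlapped, and their log2 fold changes of 0.05 and 0.09 became -0.17 and -0.13 with median-of-ratios scaling. Mcoln1, the calcium channel through which lysosomes signal to TFEB, had 28.9, 30.2 and 36.8 TPM against 34.8, 35.7 and 31.6 (log2 fold change 0.09, SE 0.16, and -0.12 with that scaling). Cd63, a tetraspanin of late endosomes, had 96.5, 119 and 106 TPM against 114, 153 and 145, with CRISPRi mouse 1 below non-targeting mouse 2 (log2 fold change 0.35, SE 0.17, adjusted p = 0.400).

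The transcription factors were at low levels and overlapped between the groups. Tfeb had 4.41, 4.93 and 4.66 TPM in the controls and 4.60, 3.96 and 4.24 in the CRISPRi mice, a log2 fold change of -0.11 (SE 0.16, adjusted p = 0.735). Tfe3 had 22.3, 17.1 and 13.6 TPM against 18.4, 18.2 and 14.8, and was thus several times as abundant as Tfeb in every library (log2 fold change -0.02, SE 0.21). Without non-targeting mouse 1 the value of Tfe3 was 0.15. RNA levels do not report the entry of these factors into the nucleus, by which they are mainly controlled.

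Both factors bind a palindrome built on CACGTG, best as TCACGTGA, the core of the CLEAR box. These motifs, each its own reverse complement and so read on both strands, the shorter contained in the longer, were searched for in windows from 250 bases before to 50 after gene starts (RefSeq, GRCm38.p6), which were given for 42 of the 54 genes. TCACGTGA was in a window of 7 of the 42 (16.7%), against 2.29% of the 8271 tested genes with a window, and CACGTG in 13 (31.0%) against 12.1%. TCACGTGA preceded by G and followed by C was in none, against 0.871% of tested genes. By role, TCACGTGA was found for 3 of 17 pump genes, 3 of 9 hydrolase genes, 1 of 4 membrane protein genes, 0 of 2 transcription factor genes and 0 of 10 autophagy genes. On the lists of related genes read further below, it was found for only 1 of 37 other lysosomal hydrolase genes (2.70%). It was in 6 of 31 other membrane protein genes and 1 of 10 pump assembly and accessory genes. Other core autophagy genes had it in 2 of 31, nutrient sensing genes in 0 of 31 and other receptor genes in 0 of 13. Stretches of 60 bases before the start are shown for 4 of these genes, 5′ to 3′ on the gene's strand with TCACGTGA in capitals. These stretches were picked after the values were seen, from genes with larger and smaller differences. Their positions are chr16:44139358-44139417 on the minus strand for Atp6v1a, chr7:142387893-142387952 on the minus strand for Ctsd, chr2:164833713-164833772 on the plus strand for Ctsa and chr8:3500447-3500506 on the plus strand for Mcoln1.
Atp6v1a: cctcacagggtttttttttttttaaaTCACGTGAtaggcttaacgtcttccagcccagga
Ctsd: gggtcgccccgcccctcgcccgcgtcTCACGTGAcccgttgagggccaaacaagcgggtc
Ctsa: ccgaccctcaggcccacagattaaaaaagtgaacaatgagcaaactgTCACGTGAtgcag
Mcoln1: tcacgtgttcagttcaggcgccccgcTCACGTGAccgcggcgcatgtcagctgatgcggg

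The first base of the capitals lies 132, 99, 13 and 46 bases before the start in these genes. Their log2 fold changes were 0.67, 0.52, 0.04 and 0.09 in the same order, a spread for which these genes were picked. Any link between the motif and the values was not tested. Ctsa holds a second copy just after its start. The remaining genes with TCACGTGA were Gla, with 2 copies before its start, and Atp6v0e and Atp6v0d1, where it lies at or just after the start. The log2 fold changes of these were 0.31, 0.75 and 0.17. Ctsl, the member with the lowest p, had only the 6-base core, 236 bases before its start. A match describes these letters and not a bound site.

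Of the 12 autophagy genes 10 had a log2 fold change above 0, where 74.0% of all genes did. Gabarapl1, a lipid-conjugated cargo and membrane adaptor, had 435, 320 and 314 TPM in the controls and 510, 465 and 437 in the CRISPRi mice. The groups did not overlap, by the narrow gap between non-targeting mouse 1 and CRISPRi mouse 3 (log2 fold change 0.41, SE 0.17, adjusted p = 0.369). That log2 fold change was 0.20 with median-of-ratios scaling. Gabarap, the most abundant member of all 54, had 828, 678 and 747 TPM against 990, 910 and 827, with non-targeting mouse 1 level with CRISPRi mouse 3 (log2 fold change 0.28, SE 0.15). Gabarapl2 had 171, 112 and 131 TPM against 193, 178 and 156. Of the LC3 genes, Map1lc3b had 178, 146 and 155 TPM against 218, 174 and 145, and Map1lc3a had 141, 125 and 207 against 237, 209 and 139. Both overlapped widely, and the log2 fold change of Map1lc3b, 0.15, became -0.07 with median-of-ratios scaling.

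The cargo receptor genes Nbr1 and Optn had the arrangement seen for Atp6v1a. Nbr1, a receptor for ubiquitin-tagged cargo, had 33.6, 24.0 and 17.1 TPM in the controls and 33.3, 32.1 and 34.2 in the CRISPRi mice, a log2 fold change of 0.45 (SE 0.24, adjusted p = 0.408). Optn, a receptor for damaged mitochondria and bacteria, had 26.5, 16.2 and 17.0 TPM against 27.1, 26.3 and 25.6. In both, non-targeting mouse 1 lay with the CRISPRi mice and the other controls below them. Atg7, the enzyme that activates LC3 for conjugation, had 23.4, 16.3 and 23.1 TPM against 30.6, 26.7 and 25.2 and as deposited did not overlap (log2 fold change 0.39, SE 0.19, adjusted p = 0.399). With median-of-ratios scaling its log2 fold change was 0.18. Atg5, part of the conjugating complex, had 35.0 ± 9.87 and 40.8 ± 1.46 TPM, and Becn1, of the lipid kinase that starts the autophagosome, had 64.4 ± 10.2 and 72.0 ± 5.09 (SD, n = 3 each). The log2 fold change of Becn1, 0.17, became -0.04 with median-of-ratios scaling. The initiating kinase gene Ulk1 and the membrane sensor gene Wipi1 were the autophagy genes with values below 0, at -0.11 and -0.12, and without non-targeting mouse 2 both were close to 0 (0.0037 and 0.0090).

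For 7 genes less than 50% of the summed TPM came from transcripts that GENCODE classes as protein coding, pseudogenes aside. Among the tested genes these were Atp6v1d at 15.7%, Ctsh at 27.9%, Becn1 at 33.3%, Gusb at 39.5%, Gabarapl2 at 43.5% and Gla at 45.6%. For Gla the rest was a transcript that GENCODE vM21 did not hold, and for the others it was classed as other than protein coding.

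The calls depended on non-targeting mouse 1. That mouse was singled out by its values in these same data, so the calls without it are not independent support. Without it, 16 members passed an adjusted p of 0.05 in limma as higher and 1 as lower, where 23.1% of all genes passed as higher and 2.24% as lower. Of the 17 pump genes 8 were higher, Atp6v0c, Atp6v0e, Atp6v0e2, Atp6v1a, Atp6v1b2, Atp6v1e1, Atp6v1g1 and Atp6v1h, with log2 fold changes from 0.50 to 1.04. Atp6v1g2 was lower, at -0.45 (adjusted p = 0.0499). Among hydrolases 3 of 11 were higher, Ctsl, Ctsb (0.53) and Gla (0.48), a share near that of all genes. Among autophagy genes 5 of 12 were higher, Gabarapl1, Gabarapl2, Atg5, Nbr1 and Optn, with 0.47 to 0.68. No membrane protein or transcription factor gene passed. With median-of-ratios scaling as well, none of the 46 passed, where 4.48% of all genes did (1.74% higher, 2.74% lower), and the lowest adjusted p among them was 0.0513, for Atp6v1a. At an unadjusted p below 0.05 in that fit there were 8 members higher and 7 lower, against 14.0% and 16.5% of all genes. Leaving out any other single mouse gave no call among the members.

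**Figure D5:**
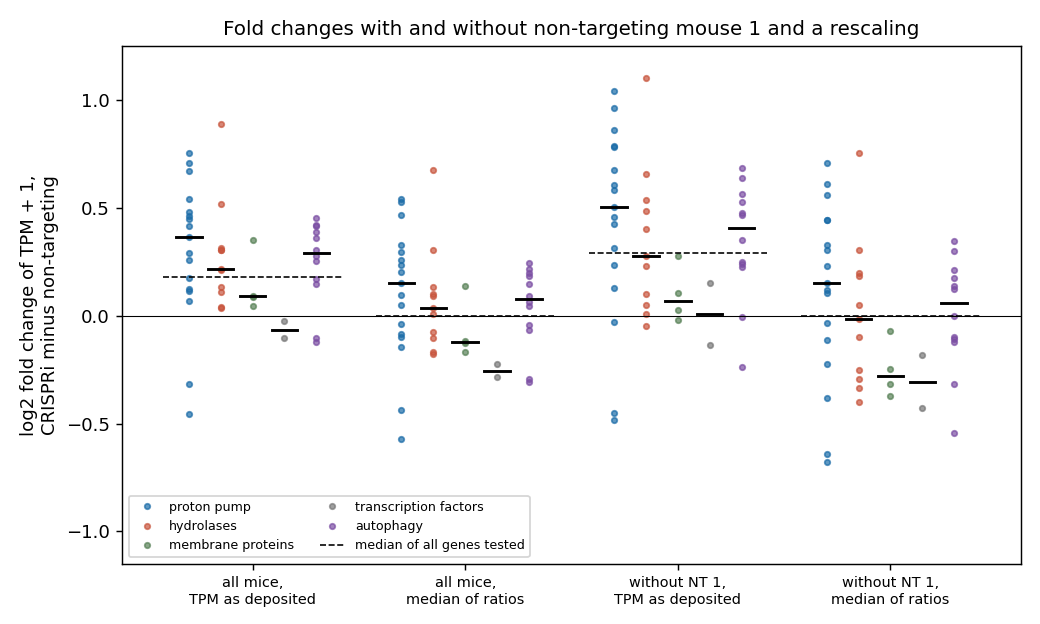
Log2 fold changes of TPM + 1 of the tested genes (points, coloured by role) in 4 fits, with the median of each role (black bars) and of all genes tested (dashed). The all-gene median is 0.18 and 0.29 for TPM as deposited, with all mice and without non-targeting mouse 1 (NT 1), and near 0 after median-of-ratios scaling, where the membrane protein and transcription factor medians lie below 0.

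Other genes of the pathway, on lists of related function, likewise had no gene that passed the adjusted p with all mice. The counts at an unadjusted p below 0.05 that follow stand against 10.1% of all genes higher and 3.19% lower. The assembly and accessory genes of the pump had a median log2 fold change of 0.23 over 12 tested, with 0 at an unadjusted p below 0.05. Atp6ap1, an accessory subunit, had 0.42 (SE 0.19), Rogdi, of the complex that reassembles the pump, 0.51 (SE 0.25), and Rnasek, a pump-associated membrane protein, 0.28 (SE 0.16). Among 46 other hydrolase genes the median was 0.15, with 4 higher and 2 lower at that p. With median-of-ratios scaling it was -0.04, with 2 higher and 5 lower, against 6.44% and 6.66% of all genes. Without non-targeting mouse 1 as well it was -0.12, with 2 higher and 12 lower, against 14.0% and 16.5% of all genes. Man2b1, lysosomal α-mannosidase, had means of 10.5 ± 0.853 and 16.2 ± 1.55 TPM (SD, n = 3 each, log2 fold change 0.58, SE 0.17), and Naaa, an acid amidase, 0.973 ± 0.348 and 1.76 ± 0.150. Idua, which degrades glycosaminoglycans, had less TPM in the CRISPRi mice, at 6.98, 9.34 and 17.0 against 2.83, 4.89 and 6.59, which did not overlap (log2 fold change -1.04, SE 0.35, adjusted p = 0.344). Among 31 other membrane protein genes the median was 0.31, with 7 higher and 0 lower. Scarb2, which carries β-glucocerebrosidase to lysosomes, had 0.55 (SE 0.18), the peptide transporter gene Slc15a4 0.69 (SE 0.23), and the cationic amino acid exporter gene Slc66a1 0.56 (SE 0.18). When only the most abundant transcript of each gene was used, Slc15a4 had -0.10. After median-of-ratios scaling the medians were 0.04 for the assembly and accessory genes and 0.09 for the membrane protein genes.

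The lists for autophagy and nutrient sensing are read against the same 10.1% higher and 3.19% lower. Of 36 other core autophagy genes, 3 were higher and 0 lower at an unadjusted p below 0.05, with a median log2 fold change of 0.20. Atg2a, which transfers lipid to the growing membrane, had 0.62 (SE 0.19), Atg13, of the initiating kinase complex, 0.57 (SE 0.22), and Wdr45, a WIPI family protein, 0.54 (SE 0.20). Of 15 other receptor genes 4 were higher and 0 lower, with a median of 0.30. Stbd1, a glycogen receptor, had 45.5, 33.9 and 36.1 TPM in the controls and 58.8, 67.3 and 60.1 in the CRISPRi mice, which did not overlap (log2 fold change 0.69, SE 0.17, adjusted p = 0.310). Fundc1, a mitochondrial receptor, had 0.52 (SE 0.19), and the log2 fold change of Sqstm1, which encodes the receptor p62, was 1.196 (SE 0.34). Of 32 genes of nutrient sensing and TFEB control 7 were higher and 0 lower, with a median of 0.23. Ddit4, an inhibitor of mTORC1 that stress induces, had 15.6, 6.24 and 7.43 TPM against 24.0, 21.0 and 25.9 (log2 fold change 1.29, SE 0.30, adjusted p = 0.310). Under median-of-ratios scaling and without non-targeting mouse 1 its value was 1.33 (adjusted p = 0.0294), in a fit where 4.48% of all genes passed 0.05. Mtor, the kinase that holds TFEB in the cytosol, had means of 7.11 ± 1.16 and 11.1 ± 0.237 TPM (SD, n = 3 each, log2 fold change 0.59, SE 0.18). Nprl3, of the complex that restrains mTORC1 when amino acids are short, had 0.68 (SE 0.24). After median-of-ratios scaling the list medians were 0.03 for core autophagy, 0.13 for receptors and 0.06 for nutrient sensing and TFEB control.

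Macrophages are rich in lysosomes, so their markers were read beside these genes. Of 16 macrophage and Kupffer cell markers 12 were tested, 11 with a log2 fold change above 0 (74.0% of all genes) and 4 at an unadjusted p below 0.05, all higher (10.1% of all genes). The median was 0.46, and 0.25 with median-of-ratios scaling. With that scaling and without non-targeting mouse 1 it was -0.05. In that fit 5 of 13 markers were above 0 and 8 below, where 5277 of 10558 genes were above 0. The summed TPM of the 16 was 95.7, 125 and 170 in the controls and 206, 139 and 182 in the CRISPRi mice, which overlapped. Csf1r and Vsig4, defining macrophage genes, had 3.33, 2.29 and 3.71 and 3.03, 3.62 and 4.93 TPM in the controls against 8.03, 5.95 and 5.21 and 8.19, 5.74 and 6.24, and neither overlapped. Clec4f, which marks Kupffer cells, had 9.25, 12.8 and 21.1 against 20.0, 17.0 and 15.5. None of the 16 was at 0 throughout. Stellate and fibroblast markers summed to 35.3, 23.7 and 50.6 TPM in the controls and 79.7, 89.9 and 61.6 in the CRISPRi mice, without overlap. Of 12 such markers 7 were tested, all above 0 (74.0% of all genes). At an unadjusted p below 0.05 in limma 5 were higher (10.1% of all genes), and none passed the adjusted p. Their median was 0.90, and 0.73 with median-of-ratios scaling. With that scaling and without non-targeting mouse 1 it was 0.56. The macrophage sum was lowest in non-targeting mouse 1. That mouse was the highest control for 31 of the 46 tested members, Atp6v1a among them. It was the lowest library for Lamp1, Mcoln1, Cd63, Hexa and Atp6v0b. The part of macrophages and stellate cells in the values of the lysosomal genes was not tested.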

How the data were processed

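Ribosome-bound RNA from 6 mouse livers, 3 per group, was quantified. The deposited table holds TPM values for 117486 transcripts, made with kallisto and the mm39 build per the submitters' processing notes. Its version and transcript set were not given in the sources used here. The values of each library sum to 1000000 TPM, so depth is unknown and no counting interval can be given. The 168 transcripts without a symbol, 116 to 143 TPM per library, were left out. Transcripts were summed per symbol. Genes with a mean of at least 1 TPM over the 6 libraries (10598) were fitted with limma 3.58.1 (R 4.3.3, trended prior, two-sided) on log2(TPM + 1), with Benjamini-Hochberg adjustment over all of them. The added 1 understates the change of low genes. The fit was tested on simulated data. Family shares were compared by exact permutation.

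Alternatives were pseudocounts of 0.1 and 5, no filter, a minimum of 5 TPM, median-of-ratios scaling, rescaling without the 10 most abundant and the mitochondrial genes, the most abundant transcript alone, a constant prior, a replicate block and leaving out each mouse. The members, lists and tests were chosen with earlier results of these data known. Values in every library are given for, in each role, up to 6 members with the smallest p and the 3 with the most TPM, and up to 3 genes of each other list are named by smallest p. Tcirg1 and the per-library values of Atp6v1b2, Atp6v1e1, Atp6v0d2, Atp6v1g2 and Map1lc3b were chosen after their values were seen. So were the marker genes named, single transcripts and the promoter stretches shown. Transcript names and classes are from GENCODE vM21, which held 325 of the members' 327 transcripts. The labels number the mice but do not say that they come from separate experiments, so p-values measure the spread between these mice.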

Additional observations from a re-analysis of the deposited data

How the results depend on the processing

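No member passed an adjusted p of 0.05 in limma under any alternative that kept all mice, and over fits that left out one mouse each the number ran from 0 to 17, the latter without non-targeting mouse 1. Over all genes 2 passed, against 0 with a pseudocount of 5 (1404 at an unadjusted p below 0.05), 0 with no filter (2132) and 1 with a minimum of 5 TPM. Leaving out one mouse gave 0 (920 at an unadjusted p, without non-targeting mouse 3) to 2673, and leaving out non-targeting mouse 1 with median-of-ratios scaling gave 473. Of the 1062 values of single genes under an alternative, 977 kept direction and side of the threshold, 36 kept direction and newly passed it, and 49 changed sign. Depth is unknown, and genes near 1 TPM are the least certain. The causes were not tested.

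With median-of-ratios scaling the median log2 fold change was 0.035 for hydrolases, -0.12 for membrane proteins, -0.25 for transcription factors and 0.076 for autophagy. With that scaling and without non-targeting mouse 1 these were -0.018, -0.28, -0.31 and 0.060, and with the most abundant transcript alone the hydrolases had 0.037 and the transcription factors -0.22. In that last setting the difference in share was -0.48 percentage points for Atp6v0e and -3.93 for Gabarap. Median-of-ratios scaling lowered other log2 fold changes without a change of sign. They became 0.30 for Ctsd, 0.20 for Gabarapl1 and Atp6v0c, and 0.18 for Atg7. Psap had 0.10, Nbr1 0.25, Optn 0.22 and Cd63 0.14 in that fit. Signs changed with median-of-ratios scaling for Atp6v0b (-0.15), Atp6v0d1 (-0.039), Atp6v1d (-0.087), Atp6v1f (-0.098), Ctsa (-0.17), Ctsh (-0.11), Ctsz (-0.18), Hexa (-0.077), Lamp1 (-0.17), Lamp2 (-0.13), Mcoln1 (-0.12), Map1lc3b (-0.067) and Becn1 (-0.044). Without non-targeting mouse 1 as well, they changed for Atp6v0b (-0.38), Atp6v0d1 (-0.034), Atp6v1d (-0.11), Atp6v1f (-0.22), Ctsa (-0.34), Ctsh (-0.25), Ctsz (-0.40), Hexa (-0.29), Glb1 (-0.018), Gusb (-0.099), Lamp1 (-0.37), Lamp2 (-0.25), Cd63 (-0.072), Mcoln1 (-0.32), Map1lc3a (-0.11), Map1lc3b (-0.12), Gabarap (-0.0037) and Becn1 (-0.097). With the most abundant transcript alone they changed for Ctsb (-0.0044), Ctsh (-0.027), Gusb (-0.068) and Slc15a4 (-0.10). Leaving out one mouse moved Atp6v0b over -0.029 to 0.16, Atp6v0d2 over -0.97 to 0.083, Atp6v1f over -0.0030 to 0.22, Ctsa over -0.021 to 0.12, Ctsz over -0.047 to 0.15, Lamp1 over -0.022 to 0.16, Tfe3 over -0.19 to 0.15, Map1lc3b over -0.0046 to 0.29, Ulk1 over -0.31 to 0.0037 and Wipi1 over -0.24 to 0.0090.

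Mice of the 2 groups share replicate numbers, but same-numbered mice did not deviate together (correlations of 0.0614, -0.096 and -0.277). The fit with a replicate block passed 2 genes overall (1486 at an unadjusted p below 0.05) and 0 members.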

Other observations

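Genes that deliver enzymes to lysosomes, such as the mannose 6-phosphate receptors, adaptors, retromer and tethering complexes, were read as a further list. Of 31 genes 30 were tested, with a median log2 fold change of 0.29 against 0.18 for all genes, and 4 were higher and 0 lower at an unadjusted p below 0.05 in limma, where 10.1% of all genes were higher and 3.19% lower. None passed the adjusted p. Vps29, a retromer subunit, had 102, 63.0 and 67.4 TPM in the non-targeting mice against 112, 113 and 105 in the CRISPRi mice, which did not overlap. Igf2r, the large mannose 6-phosphate receptor, had means of 1.80 ± 0.292 and 2.73 ± 0.238 TPM, and Vps11, of the tethering complexes, 4.24 ± 1.04 and 6.27 ± 0.178 (SD, n = 3 each). Without non-targeting mouse 1, 12 of the 30 passed as higher, where 23.1% of all genes did. Of the 24 genes of this list with a promoter window, 6 held TCACGTGA, and in 4 of them it was preceded by G and followed by C, a form that no member's window held. The median of this list was 0.09 after median-of-ratios scaling.

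Hepatocyte markers summed to 52418, 97248 and 43251 TPM in the non-targeting mice against 37608, 41928 and 53685 in the CRISPRi mice. Non-targeting mouse 2 was the highest, at 31253 TPM of Alb alone. Of the 12 markers 9 had a log2 fold change below 0 (median -0.28), where 74.0% of all genes were above 0. At an unadjusted p below 0.05 in limma 2 were lower and 0 higher, against 3.19% and 10.1% of all genes. After median-of-ratios scaling 11 of the 12 were below 0 (median -0.50), where 5319 of 10598 genes were.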
